A study of Homo sapiens with 36 samples.

Results

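The genes described here move or sense calcium: the SERCA pumps ATP2A1, ATP2A2 and ATP2A3, the plasma membrane pumps ATP2B1 and ATP2B4, the calmodulin-dependent kinases CAMK2D, CAMK2G and CAMK1, and the calcium channel subunits CACNA2D3 and CACNA2D4. They are 10 of the 57500 genes in the count files and were found by matching their symbols to Ensembl gene identifiers. The set was chosen by measured values of these libraries: it was drawn up because ATP2A1, CAMK2G and CACNA2D3 had been seen to be lower at 10% CO2, so the CO2 values of these 3 genes are given as a description without a test, and the other 7 genes, their relatives, were tested. The RNA came from THP-1 cells, a human monocytic leukaemia line, transduced with lentiviral particles that carried a non-target short hairpin RNA (shNT) or one against NR4A2 (shNR4A2) or NR4A3 (shNR4A3), so that the control cells also carried a hairpin. Each line was kept in buffered medium at 5% or 10% CO2 for 4 h, either unstimulated or with lipopolysaccharide (LPS) at 2.5 µg/ml for the last 2 h, which gave 12 conditions with 3 replicates each and 36 libraries. One transduced line stood for each target, so depletion of the target and any other difference between the lines cannot be told apart. Nothing in the labels says whether replicates were separate cultures, so p-values measure only the spread between these samples, which may be technical. In bulk RNA, fewer cells that express a gene and less RNA per cell cannot be told apart.

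Calcium ions are kept scarce in the cytosol. SERCA pumps load them into the endoplasmic reticulum, plasma membrane pumps push them out of the cell, and brief openings of channels let them back in. Calmodulin binds the incoming ions and switches on CaM kinases, which phosphorylate enzymes, channels and transcription factors. The CACNA2D genes encode α2δ proteins, extracellular subunits that help voltage-gated calcium channels reach the cell surface. In monocytes and macrophages such signals feed cytokine production, phagocytosis and migration.

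Library totals were between 16171161 and 23929138 counts, with a median of 19639071. All 10 members passed the filter on low counts, which left 17720 genes for testing. The hairpins were visible in the libraries of most states. With LPS at 5% CO2, NR4A2 was between 14.8 and 28.3 TPM (reads per base of gene length, scaled to the same sum in every library) in shNR4A2 and between 51.2 and 74.7 in shNT, and NR4A3 was between 16.6 and 18.2 TPM in shNR4A3 and between 30.9 and 32.3 in shNT. Without LPS at 10% CO2, NR4A3 was at 0.185 to 0.232 TPM in shNR4A3 and 0.176 to 0.374 in shNT. These ranges overlapped, so no depletion of NR4A3 was visible there. In every other state the target was lower in each library of its knockdown line than in any shNT library. The monocytic markers SPI1 (467 to 1132 TPM), LYZ (131 to 1058) and FCGR1A (81.3 to 129) were present in every library, and of the 4 T cell markers none went above 1.57 TPM. Of the 8 skeletal muscle markers, checked because ATP2A1 is best known from muscle, CKM was at 27.7 to 62.1 TPM, while ACTA1, MYH2, MYH7, TNNT3, TTN, DES and MYOG were at 1.54 TPM or less. One set of libraries stood apart. The median rise of the 200 genes most raised by LPS was 3.89 and 4.03 on the log2 scale in replicate 2 of shNR4A2 and shNR4A3 at 5% CO2, against 4.59 to 4.84 in replicates 1 and 3, and it was 3.78 in replicate 2 of shNT against 4.07 and 4.08, so the CO2 and CO2 by LPS terms pooled over lines are given with and without these 3 libraries for the genes tested.

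The members spanned a wide range of levels. TPM corrects for gene length and so lets genes be compared with each other. Over the 36 libraries ATP2A2, the housekeeping SERCA pump, had the highest median at 97.9 TPM (81.0 to 119), followed by CAMK1 at 81.7 (56.0 to 115). ATP2B1 had a median of 34.8 TPM but ran from 8.94 to 220. ATP2A3, the SERCA pump of blood cells, was at 34.1 TPM, ATP2B4 at 29.5, CAMK2D at 23.9, CACNA2D4 at 16.7 and CAMK2G at 15.8. The lowest levels were those of CACNA2D3 at 7.96 TPM and of ATP2A1, the fast-twitch muscle SERCA pump, at 2.70 TPM (1.03 to 7.61), which rested on 26 to 183 reads per library. CAMK2G was above CACNA2D3, and CACNA2D3 above ATP2A1, in 36 of 36 libraries, and CAMK2D was above CACNA2D4 in 33. The order of the others was looser: ATP2B1 was above ATP2A3 in 18 of 36 libraries, CAMK1 above ATP2B1 in 23 and CACNA2D4 above CAMK2G in 26.

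**Figure D1:**
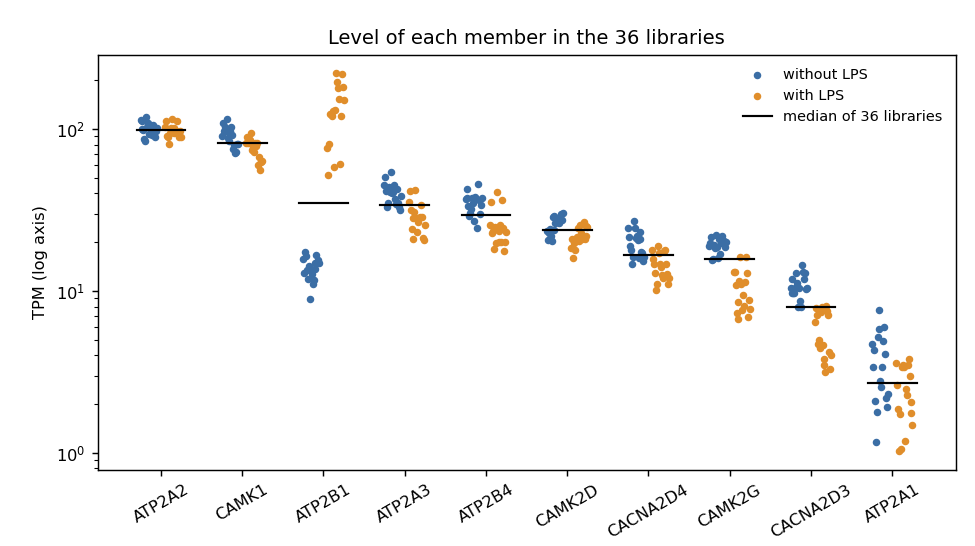
TPM (log axis) of the 10 members, ordered by median, in each of the 36 libraries; blue points are the libraries without LPS, orange points those with LPS, and the black line is the median of all 36. ATP2A2 stays between 81.0 and 119 TPM, while ATP2B1 falls into a low and a high set with LPS and ATP2A1 lies lowest at a median of 2.70 TPM.

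CAMK1 needs a caution: 80.2% of its exonic bases are also exonic in OGG1, a DNA repair gene on the opposite strand, and no source used here says whether reads were counted by strand. How reads in the shared bases were assigned is therefore not known. They may have been left uncounted or mixed with those of OGG1. The antisense genes of ATP2A1, ATP2B1, CAMK2G and CACNA2D3 share 5.36%, 0.864%, 3.14% and 2.61% of the member's exonic bases. RABEP2, also on the opposite strand, shares 1.94% of the exonic bases of ATP2A1. It had 348 to 919 reads per library, beside 26 to 183 for ATP2A1, and its part in the ATP2A1 reads was not tested.

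The stretches before the transcription start are shown for the 3 genes described as lower at 10% CO2 and for ATP2B1, the member with the largest change after LPS. They were taken from RefSeq (GRCh38.p14), which had a promoter entry for 8 of the 10 members (not ATP2A3 or CACNA2D4), and are printed 5′ to 3′ on the gene's strand, up to the start of the gene in the files' annotation or in RefSeq, whichever came first, with GC boxes (GGGCGG on either strand, overlapping matches included) in capitals. ATP2A1 (ENSG00000196296) lies on chromosome 16 from 28878405 to 28904509 on the plus strand, and the stretch is chr16:28878238-28878404. CAMK2G (ENSG00000148660) lies on chromosome 10 from 73812501 to 73874591 on the minus strand, with chr10:73874592-73874805 shown. CACNA2D3 (ENSG00000157445) lies on chromosome 3 from 54122547 to 55074557 on the plus strand, with chr3:54122302-54122546 shown. ATP2B1 (ENSG00000070961) lies on chromosome 12 from 89588049 to 89709300 on the minus strand, with chr12:89709367-89709616 shown.
ATP2A1: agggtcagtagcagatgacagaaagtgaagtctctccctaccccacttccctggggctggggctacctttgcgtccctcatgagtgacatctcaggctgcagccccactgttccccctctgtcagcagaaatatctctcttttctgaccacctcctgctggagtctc
CAMK2G: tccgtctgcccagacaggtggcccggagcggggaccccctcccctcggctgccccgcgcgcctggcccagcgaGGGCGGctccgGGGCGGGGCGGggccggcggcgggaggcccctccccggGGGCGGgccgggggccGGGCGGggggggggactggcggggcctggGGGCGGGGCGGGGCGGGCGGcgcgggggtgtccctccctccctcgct
CACNA2D3: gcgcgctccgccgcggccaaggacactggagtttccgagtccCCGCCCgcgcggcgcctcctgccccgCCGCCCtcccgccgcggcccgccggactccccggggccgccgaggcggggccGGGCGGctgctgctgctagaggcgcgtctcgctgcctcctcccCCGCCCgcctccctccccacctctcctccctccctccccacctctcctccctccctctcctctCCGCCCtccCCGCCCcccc
ATP2B1: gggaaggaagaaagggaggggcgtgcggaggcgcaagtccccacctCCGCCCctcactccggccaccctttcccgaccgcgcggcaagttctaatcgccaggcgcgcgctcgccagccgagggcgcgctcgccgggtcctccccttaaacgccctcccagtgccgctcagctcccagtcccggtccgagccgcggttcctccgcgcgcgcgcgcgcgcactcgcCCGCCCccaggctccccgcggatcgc
The CAMK2G stretch held 9 GC boxes and the CACNA2D3 stretch 6, with GC contents of 87.4% and 80.8%, while the ATP2B1 stretch held 2 at 75.2% GC and the ATP2A1 stretch none at 55.7%. A GC box was present in 42.6% of the 35116 windows of 250 bases before RefSeq starts, whose median GC content was 58%, and this motif was chosen after the windows had been read. Over the full 250 bases the GC content was 60.8% for ATP2A1, 84.8% for CAMK2G, 80.8% for CACNA2D3 and 75.2% for ATP2B1. The NF-kB motif, the AP-1 motif TGANTCA, the CRE motif TGACGTCA and the ETS core CCGGAA, found in 1.40%, 6.57%, 1.65% and 14.5% of all windows on either strand, had no match in the 250 bases of any of the 8 members, which says only that these letters are not in this window.

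Within a gene, libraries are compared by scaled CPM, the count per library size after scaling by the trimmed mean of M values over all 36 libraries, with a prior count of 2 added to each value. Folds are log2 fold changes with their standard error (SE) from edgeR's quasi-likelihood test, with p adjusted over all 17720 genes. For the 3 genes chosen by their CO2 values, the SE of a CO2 value is not read as a test. A change is called where the adjusted p is under 0.05. Elevated CO2 was first compared with 5% CO2 in each line, with and without LPS. Among the 7 relatives, 3 of 42 tests were called, all in shNT cells with LPS: ATP2B1 was higher, and ATP2A3 and CACNA2D4 were lower. In that comparison 8.19% of all genes were called, and without LPS in shNT 0.615%. The shares were 0.0113% without and 0.198% with LPS in shNR4A2, and 1.13% and 2.13% in shNR4A3. One CO2 term over the 3 lines and both LPS states called 5 of the 7 relatives (ATP2B1 and CAMK1 higher, ATP2A2, ATP2A3 and CACNA2D4 lower), against 37.6% of all genes. Without the 3 libraries that stood apart it also called 5, with CAMK2D in place of ATP2A2, against 33.4% of all genes.

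**Figure D2:**
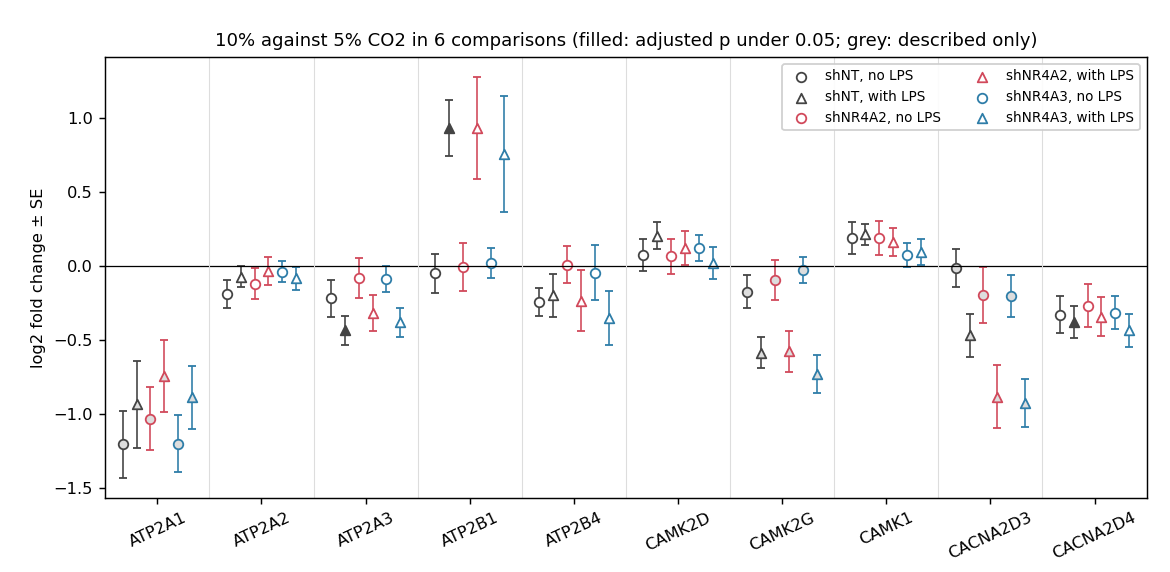
Log2 fold change of each member between 10% and 5% CO2 (positive, higher at 10%) with its SE, in the 3 lines without LPS (circles) and with LPS (triangles); filled symbols have an adjusted p under 0.05 and grey symbols mark the 3 genes that were described without a test. ATP2A1 lies below 0 in all 6 comparisons, CAMK2G and CACNA2D3 lie lowest with LPS, and ATP2B1 lies above 0 by 0.76 to 0.94 with LPS.

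LPS against no stimulus in each line and CO2 level gave 22 calls in 60 member tests, 9 higher and 13 lower, where 22.9% and 31.2% of all genes were called in shNT at 5% and 10% CO2, 18.2% and 35% in shNR4A2, and 25.3% and 42.1% in shNR4A3. ATP2B1 accounted for 6 of the 9 higher calls and ATP2A2 for 3, while CAMK2G (5), CACNA2D3 (4), ATP2A3 (3) and ATP2B4 (1) made up the lower ones. Of these, 6 were CAMK2G and CACNA2D3 at 10% CO2. Their low values in the libraries with LPS at 10% CO2 entered the CO2 values that put both genes in the set, so these 6 are no independent result and are described without a test. Their calls at 5% CO2 used the libraries with LPS that were the reference of the same CO2 values, so these calls are not independent either. The median log2 fold change of the 10 members lay between -0.29 and -0.08 over the 6 comparisons, beside -0.01 to 0.00 over all genes. That median includes CAMK2G, CACNA2D3 and ATP2A1, which were chosen by values of these libraries, so it is no independent measure of the set. With scaling by library size alone the median of all genes moved to between -0.25 and -0.18, so small changes after LPS are read relative to the trimmed-mean scaling. The replicate numbers paired the samples in 5 of the 6 LPS comparisons, and where a fit with the replicate as a block changed a call in these, its value is given too.

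**Figure D3:**
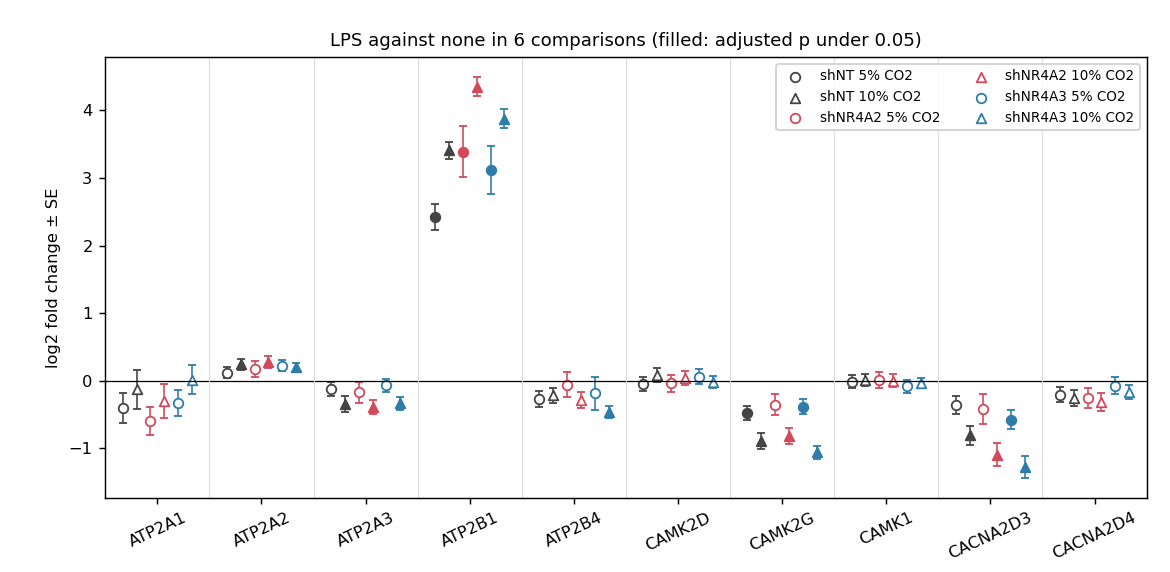
Log2 fold change of each member between cells with and without LPS, with its SE, in the 3 lines at 5% CO2 (circles) and 10% CO2 (triangles); filled symbols have an adjusted p under 0.05. ATP2B1 lies between 2.43 and 4.35 in the 6 comparisons, and CAMK2G and CACNA2D3 lie below 0 in all 6, lower at 10% than at 5% CO2 in each line, an order that the choice of these 2 genes by their CO2 values had used. The filled symbols of these 2 genes are therefore no independent result.

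Among the SERCA pumps, ATP2A1 was lower at 10% CO2 in every line and LPS state. Without LPS the 3 shNT libraries were at 5.62, 4.21 and 4.89 scaled CPM at 5% CO2 and at 2.69, 1.56 and 2.26 at 10%. The corresponding shNR4A2 values were 6.18, 9.11 and 6.68 against 3.60, 3.03 and 4.17, and the shNR4A3 values were 6.14, 7.08 and 5.04 against 2.86, 2.45 and 2.76. All 9 libraries at 10% CO2 thus lay below the lowest library at 5% CO2 of the same line. ATP2A1 was chosen for being lower at 10% CO2, so this separation is no independent result. The log2 fold changes were -1.21 ± 0.23 (SE) in shNT, -1.03 ± 0.21 in shNR4A2 and -1.20 ± 0.19 in shNR4A3, each from 3 against 3 libraries.

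With LPS, ATP2A1 was at 4.99, 3.54 and 2.69 scaled CPM at 5% CO2 and at 1.63, 2.83 and 1.57 at 10% in shNT, and these ranges overlapped. In shNR4A2 it was at 5.06, 4.64 and 4.93 against 1.93, 3.58 and 3.30, and in shNR4A3 at 5.19, 5.13 and 4.34 against 3.17, 2.60 and 2.27, with no overlap in either line. The log2 fold changes with LPS were -0.94 ± 0.30, -0.74 ± 0.25 and -0.89 ± 0.21. Over all 36 libraries the CO2 term was -1.01 ± 0.10, a 2.01-fold lower level, given without a test because ATP2A1 was chosen by its CO2 values.  LPS itself gave ATP2A1 no call in 6 comparisons (log2 fold changes of -0.60 to 0.02, adjusted p = 0.0621 to 0.963), although in shNR4A2 at 5% CO2 the value of -0.60 was called with the replicate block (adjusted p = 0.0268). With scaling by library size alone it was also called lower there (-0.81, adjusted p = 0.0118). These comparisons used libraries whose CO2 values had put ATP2A1 in the set, so they are not independent of that choice.

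ATP2A2, the SERCA pump that nearly all cells use, moved little. At 10% CO2 its log2 fold changes were between -0.19 and -0.03 in the 6 comparisons, none called, and the pooled CO2 term was -0.09 ± 0.03 (adjusted p = 0.0101). That small decrease was no longer called without the 3 libraries that stood apart (-0.07, adjusted p = 0.0549). After LPS at 10% CO2 it was called higher in all 3 lines, by 0.24 ± 0.09 in shNT (adjusted p = 0.0405), 0.28 ± 0.09 in shNR4A2 (0.0263) and 0.21 ± 0.06 in shNR4A3 (0.0141). Leaving out 1 library at a time, these calls were lost in 5 of 6 cases in shNT (all but replicate 1 without LPS), in 5 of 6 in shNR4A2 (all but replicate 2 without LPS) and in 2 of 6 in shNR4A3 (replicate 3 without and replicate 2 with LPS), with adjusted p up to 0.143. With scaling by library size alone the values were 0.02, 0.03 and -0.05, none called, so the direction of ATP2A2 after LPS depended on the scaling. At 5% CO2 the rise of 0.22 in shNR4A3 was called with the replicate block (adjusted p = 0.0167) but not without it (0.0685).

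ATP2A3, whose product pumps calcium in haematopoietic and endothelial cells, was called lower at 10% CO2 in shNT cells with LPS and over all lines and states together. In shNT it was at 71.7, 81.1 and 66.5 scaled CPM with LPS at 5% CO2 and at 53.5, 49.0 and 59.1 at 10%. Every library at 10% CO2 was below every library at 5%, a log2 fold change of -0.43 ± 0.10 (adjusted p = 0.0174). The same comparison gave -0.32 ± 0.12 in shNR4A2 (adjusted p = 0.223) and -0.38 ± 0.10 in shNR4A3 (0.0723), and without LPS the values were -0.22, -0.08 and -0.09. Pooled over lines and LPS states the CO2 term was -0.26 ± 0.05 (adjusted p = 0.000196), and -0.20 (0.00206) without the 3 libraries that stood apart. The shNT call was lost without any 1 of 3 libraries (replicate 1 or 2 at 5% CO2, replicate 2 at 10%), with adjusted p up to 0.0844. LPS lowered ATP2A3 at 10% CO2 in shNT (-0.34, adjusted p = 0.0336), shNR4A2 (-0.39, 0.00676) and shNR4A3 (-0.33, 0.0104) and gave no call at 5% CO2 (-0.17 to -0.07). The shNT call was lost without any 1 of 4 libraries (replicate 2 or 3 without LPS, replicate 1 or 2 with LPS, adjusted p up to 0.161), and the shNR4A3 call without replicate 3 without LPS (0.0554). With scaling by library size alone ATP2A3 was also called lower after LPS in shNT at 5% CO2 (-0.30, adjusted p = 0.0453). Whether the CO2 effect differed with LPS was tested over the 3 lines, and the term of -0.24 ± 0.10 was not called (adjusted p = 0.217), nor was it without the 3 libraries that stood apart (-0.16, adjusted p = 0.672).

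ATP2B1, the main calcium exporter of many cell types, showed the largest change among the members. In shNT at 5% CO2 it rose from 38.1, 32.2 and 40.0 scaled CPM to 213, 141 and 233 with LPS, and at 10% CO2 from 41.9, 34.7 and 29.9 to 378, 399 and 343. In shNR4A2 it rose from 34.7, 22 and 32.0 to 389, 157 and 385 at 5% CO2 and from 33.3, 26.4 and 28.8 to 704, 559 and 523 at 10%. In shNR4A3 it rose from 38.4, 32.8 and 41.9 to 462, 168 and 353 at 5% CO2 and from 39.0, 39.6 and 35.5 to 669, 531 and 453 at 10%. All 18 LPS libraries lay far above all 18 unstimulated ones, and at 5% CO2 replicate 2 was the lowest LPS library of each line. The log2 fold changes at 5% CO2 were 2.43 ± 0.19 (adjusted p = 4.87e-05), 3.39 ± 0.37 (0.000554) and 3.12 ± 0.36 (0.000689) in shNT, shNR4A2 and shNR4A3. At 10% CO2 they were 3.41 ± 0.12 (adjusted p = 4.19e-13), 4.35 ± 0.14 (4.48e-12) and 3.88 ± 0.14 (2.01e-08), so the folds ran from 5.37 to 20.4.

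CO2 made little difference to ATP2B1 in unstimulated cells, with log2 fold changes of -0.05, -0.01 and 0.02 and no call. With LPS it was higher at 10% CO2 by 0.94 ± 0.19 in shNT (adjusted p = 0.0375), where the libraries did not overlap. The values of 0.94 ± 0.34 in shNR4A2 (adjusted p = 0.256) and 0.76 ± 0.39 in shNR4A3 (0.384) were of similar size but were not called. Leaving out 1 library at a time in shNT, the call was lost in 4 of 6 cases (replicate 1 at 5% CO2 and each of the 3 at 10%), with adjusted p up to 0.128. Pooled over lines and LPS states the CO2 term of ATP2B1 was 0.45 ± 0.14 (adjusted p = 0.0106), and 0.28 (0.017) without the 3 libraries that stood apart. The difference between the LPS states itself, a CO2 by LPS term, was 0.98, 0.94 and 0.74 in the 3 lines with no call in any line. A single term over the 3 lines, added after these values were seen, was 0.89 ± 0.23 (adjusted p = 0.0375), where 2.46% of all genes were called. Without the 3 libraries that stood apart it was 0.62 ± 0.13 (adjusted p = 0.0136), where 0.926% of genes were called. The size of the LPS response over the 200 genes above also moved with CO2 (4.34 to 4.51 at 10% against 3.78 to 4.08 at 5% in shNT), and its part in the ATP2B1 value was not tested.

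ATP2B4, the other plasma membrane pump measured here, went the opposite way and by less. With LPS at 10% CO2 in shNR4A3 it was at 55.4, 60.0 and 71.3 scaled CPM against 80.5, 88.2 and 91.5 without, a log2 fold change of -0.46 ± 0.09 (adjusted p = 0.00100). The other 5 LPS comparisons gave -0.28 to -0.06 with no call, of which -0.21 in shNT (adjusted p = 0.0433) and -0.28 in shNR4A2 (0.0143), both at 10% CO2, were called with the replicate block. With scaling by library size alone ATP2B4 was also called lower in shNT at 5% CO2 (-0.44, adjusted p = 0.022) and 10% CO2 (-0.43, 0.00402). The same held in shNR4A2 at 10% CO2 (-0.53, 0.0037). Its pooled CO2 term was -0.18 ± 0.08 (adjusted p = 0.063), and -0.06 (0.416) without the 3 libraries that stood apart, in which ATP2B4 was high at 98.4, 113 and 102 scaled CPM.

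Among the kinases, CAMK2G, a subunit of the multifunctional CaM kinase II, fell with LPS. At 5% CO2 the shNT libraries went from 32.9, 35.2 and 35.6 scaled CPM to 26.4, 25.3 and 22.5, and at 10% CO2 from 28.3, 29.1 and 34.3 to 16.2, 15.5 and 17.6. The shNR4A2 libraries went from 31.9, 38.7 and 31.0 to 25, 31.6 and 23.2 at 5% CO2 and from 29.8, 35.5 and 29.9 to 17.5, 19.4 and 16.9 at 10%. The shNR4A3 libraries went from 36, 37.3 and 35.6 to 24.7, 32.0 and 27.0 at 5% CO2 and from 38.1, 34.0 and 34.1 to 15.2, 18.5 and 16.8 at 10%. All 9 libraries with LPS at 10% CO2 were below all 27 others, which ranged from 22.5 upward. At 10% CO2, where the libraries with LPS had helped to choose this gene, the log2 fold changes with LPS were -0.89 ± 0.12, -0.82 ± 0.11 and -1.06 ± 0.10 in shNT, shNR4A2 and shNR4A3, given without a test. At 5% CO2 they were -0.48 ± 0.10 (adjusted p = 0.00279), -0.35 ± 0.15 (0.133, and 0.0239 with the replicate block) and -0.38 ± 0.11 (0.0263). The libraries with LPS at 5% CO2 were the reference in that choice, so these tests are not independent of it. The shNR4A3 call at 5% CO2 was lost in 5 of 6 cases when 1 library was left out (each library but replicate 2 with LPS), with adjusted p up to 0.124.

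The lower CAMK2G at 10% CO2 that put it in the set was seen with LPS, at -0.59 ± 0.11 in shNT, -0.57 ± 0.14 in shNR4A2 and -0.73 ± 0.13 in shNR4A3, with no overlap between the libraries in any line. Without LPS the values were -0.17 ± 0.11, -0.09 ± 0.13 and -0.03 ± 0.09, and the libraries overlapped. The difference between these, pooled over the lines, was -0.53 ± 0.09, and it is given without a test.

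CAMK2D, another CaM kinase II subunit, did not follow CAMK2G. LPS gave it log2 fold changes between -0.05 and 0.08 with no call, and CO2 gave 0.02 to 0.21 in the 6 comparisons, all above 0 and none called. With scaling by library size alone it was called lower after LPS in shNR4A3 at 10% CO2 (-0.27, adjusted p = 0.0165). The pooled CO2 term was 0.10 ± 0.04 (adjusted p = 0.0509), and 0.12 (0.0331) without the 3 libraries that stood apart. CAMK1, a kinase that itself needs phosphorylation by an upstream CaM kinase kinase, was 0.08 to 0.22 higher at 10% CO2 in the 6 comparisons, none called, with a pooled term of 0.15 ± 0.03 (adjusted p = 0.000208), and 0.16 (0.000418) without the 3 libraries. LPS gave CAMK1 no call (-0.08 to 0.01). With scaling by library size alone CAMK1 was called lower after LPS at 10% CO2 in shNR4A2 (-0.24, adjusted p = 0.0395) and shNR4A3 (-0.29, 0.00467). The shared exonic bases with OGG1 apply to each of these values.

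Chosen by its CO2 values like CAMK2G, the α2δ subunit CACNA2D3 showed the same order of conditions as that gene. In shNT it went with LPS from 12.6, 12 and 13.4 scaled CPM to 8.94, 10.5 and 10.2 at 5% CO2 and from 12.2, 12.3 and 13 to 7.15, 7.98 and 6.40 at 10%. In shNR4A2 it went from 15.4, 13.6 and 9.18 to 11.2, 10.7 and 6.84 at 5% CO2 and from 13.5, 10.2 and 9.76 to 6.08, 5.04 and 4.64 at 10%. In shNR4A3 it went from 18.4, 15.6 and 14.7 to 12.2, 10.3 and 10.3 at 5% CO2 and from 16.9, 12.9 and 12.3 to 6.47, 4.82 and 6.07 at 10%. The lowest libraries of each line were those with LPS at 10% CO2, and only in shNR4A2 at 5% CO2 did the libraries with and without LPS overlap. At 10% CO2, for the same reason without a test, the log2 fold changes with LPS were -0.81 ± 0.14, -1.09 ± 0.17 and -1.27 ± 0.16. At 5% CO2 they were -0.36 ± 0.13 (adjusted p = 0.0646), -0.42 ± 0.23 (0.233, and 0.0304 with the replicate block) and -0.57 ± 0.14 (0.00943). The last of these was at 0.0513 without replicate 3 with LPS. The tests at 5% CO2 also used libraries that had entered the choice of CACNA2D3, so they are not independent of it.

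The CO2 values that had put CACNA2D3 in the set were -0.47 ± 0.14, -0.88 ± 0.21 and -0.92 ± 0.16 with LPS in shNT, shNR4A2 and shNR4A3, with no overlap, and -0.01 ± 0.13, -0.19 ± 0.19 and -0.20 ± 0.14 without LPS, where the libraries overlapped. Pooled over the lines the difference between the states was -0.62 ± 0.14, again without a test. For ATP2A1 the same difference was 0.30 ± 0.19, so its lower level at 10% CO2 was not larger with LPS.

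CACNA2D4, the other α2δ gene, was called lower at 10% CO2 over all lines and states. Its 6 log2 fold changes were between -0.43 and -0.27, and the pooled term was -0.35 ± 0.05 (adjusted p = 3.90e-06), and -0.35 (1.56e-05) without the 3 libraries that stood apart. In shNT with LPS it was at 40.2, 34.5 and 34.0 scaled CPM at 5% CO2 and at 31.7, 26.3 and 25.6 at 10% (-0.38 ± 0.11, adjusted p = 0.0474), without overlap. This call was lost without any 1 of 4 libraries (replicate 1 or 2 at 5% CO2, replicate 2 or 3 at 10%), with adjusted p up to 0.167. Its CO2 by LPS term was -0.08 ± 0.11 over the 3 lines (adjusted p = 0.843), and -0.10 (0.894) without these libraries. LPS gave -0.32 to -0.07 with no call, of which -0.25 in shNT (0.0424) and -0.32 in shNR4A2 (0.0111) at 10% CO2 were called with the replicate block. With scaling by library size alone CACNA2D4 was called lower after LPS in every comparison but shNR4A3 at 5% CO2 (-0.26, adjusted p = 0.138). The called values were -0.56 to -0.38 (adjusted p = 0.00234 to 0.0241).

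**Figure D4:**
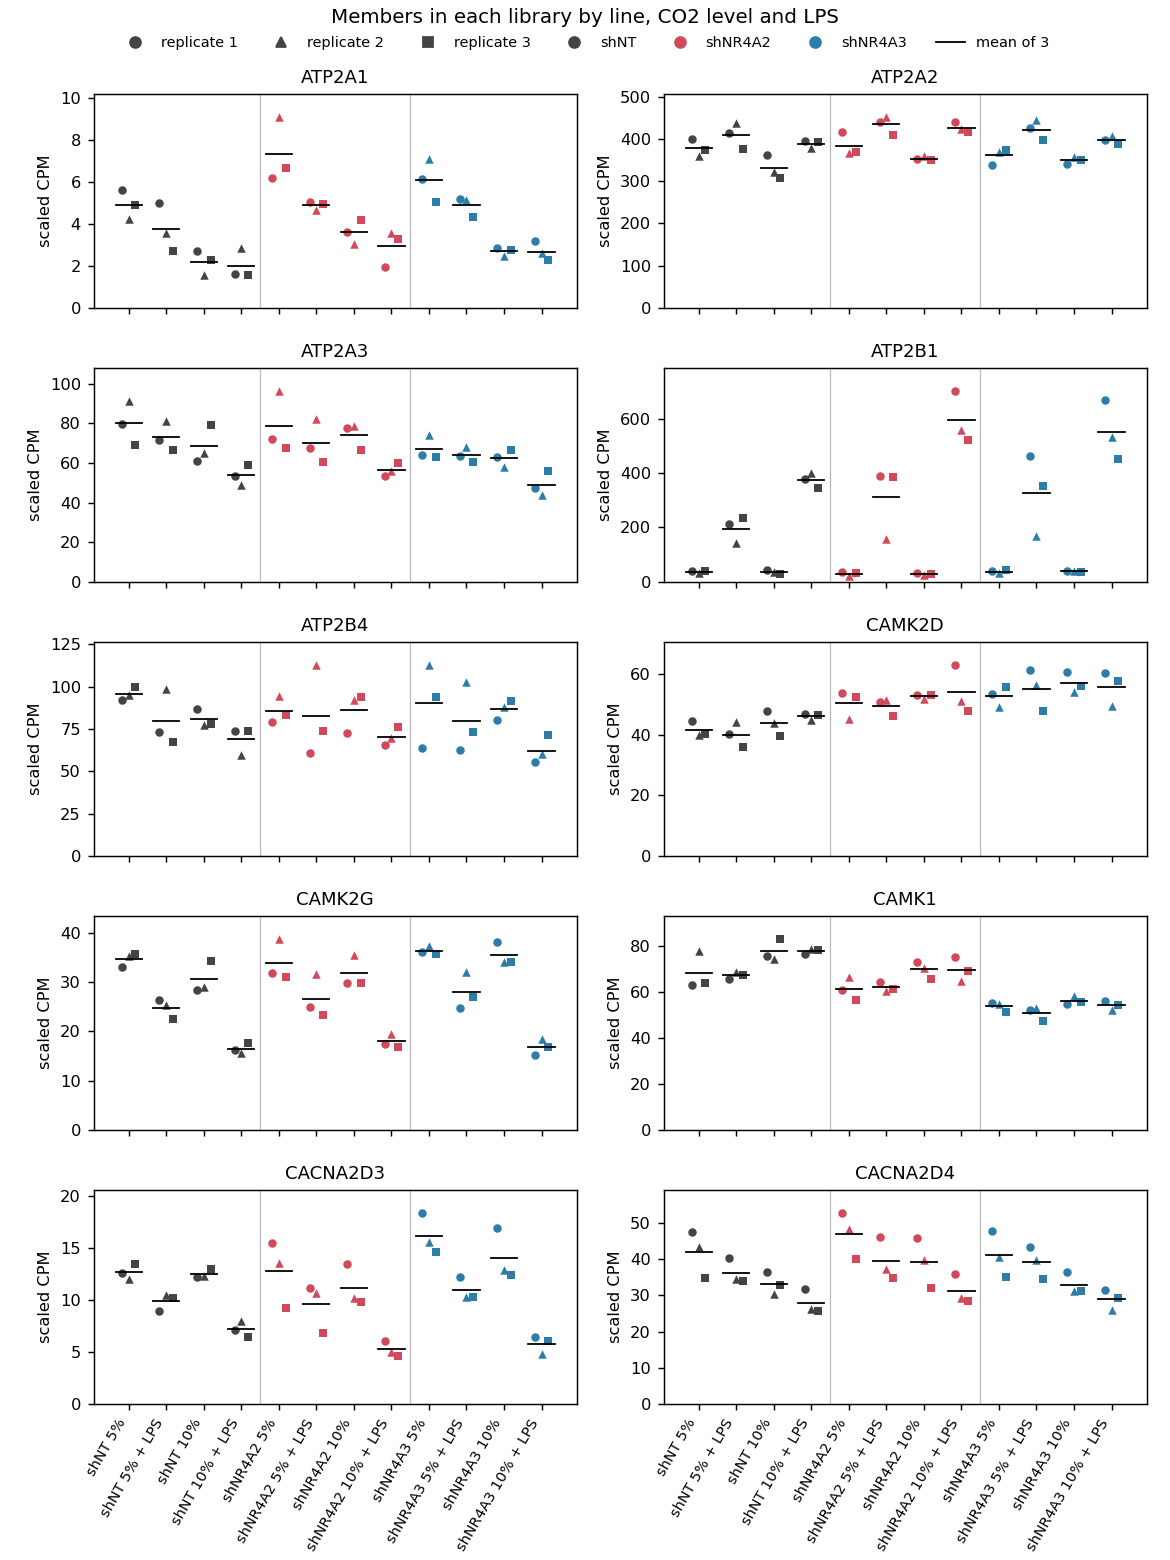
Scaled CPM (linear axis from 0) of the 10 members in each library, by line (colour), CO2 level and LPS; circles, triangles and squares are replicates 1, 2 and 3 and the black line is the mean of 3. ATP2B1 is high in the 18 LPS libraries and higher at 10% CO2, CAMK2G and CACNA2D3 are lowest with LPS at 10% CO2, and ATP2A1 is low at 10% CO2 in all lines.

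For each of the 3 genes described as lower at 10% CO2, the genes with the most similar profile were looked up by Pearson's r of mean log2 CPM over the 12 conditions among 14206 genes, as a description. The nearest to ATP2A1 were ENSG00000258297 (r = 0.977), SRRM1 (0.965) and CYTH1 (0.964). CAMK2G was closest to ARHGAP1 (0.980), ARHGAP30 (0.978) and RCAN3 (0.977), and CACNA2D3 to KIF11 (0.982), MTM1 (0.980) and UBE2R2 (0.977). Among the members themselves the highest r were those of CAMK2G with CACNA2D3 (0.950) and with ATP2B4 (0.936), and of ATP2A1 with CACNA2D4 (0.924), and the lowest was that of CAMK2G with ATP2B1 (-0.885). These points share libraries, LPS states and scaling. CAMK2G, CACNA2D3 and ATP2A1 were also all chosen for being lower at 10% CO2, so their r are not independent of that choice.

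Each knockdown line was then compared with shNT in the 4 CO2 and LPS states. Both sets of comparisons used the same shNT libraries. Of 80 member tests 9 were called, 6 higher and 3 lower. Of all genes, 5.69% and 7.95% were called in shNR4A2 without LPS at 5% and 10% CO2 and 6.21% and 18.9% with LPS, and in shNR4A3 6.19%, 6.85%, 5.41% and 14.5% in the same order. With the replicate block, 22 of 80 were called, where 11.9% to 34.8% of genes were. Calls of ATP2A1 and CACNA2D3 were among the 22, and both genes had been chosen by CO2 values of these libraries. The numbers paired the samples in 7 of the 8 comparisons (all but shNR4A2 at 10% CO2 without LPS). Within these, 9 of 70 tests were called without the block and 21 with it. The summed monocytic markers also differed between the lines, at 875 to 1277 TPM in shNT, 1539 to 1912 in shNR4A2 and 1672 to 2308 in shNR4A3, and their part in the values below was not tested.

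**Figure D5:**
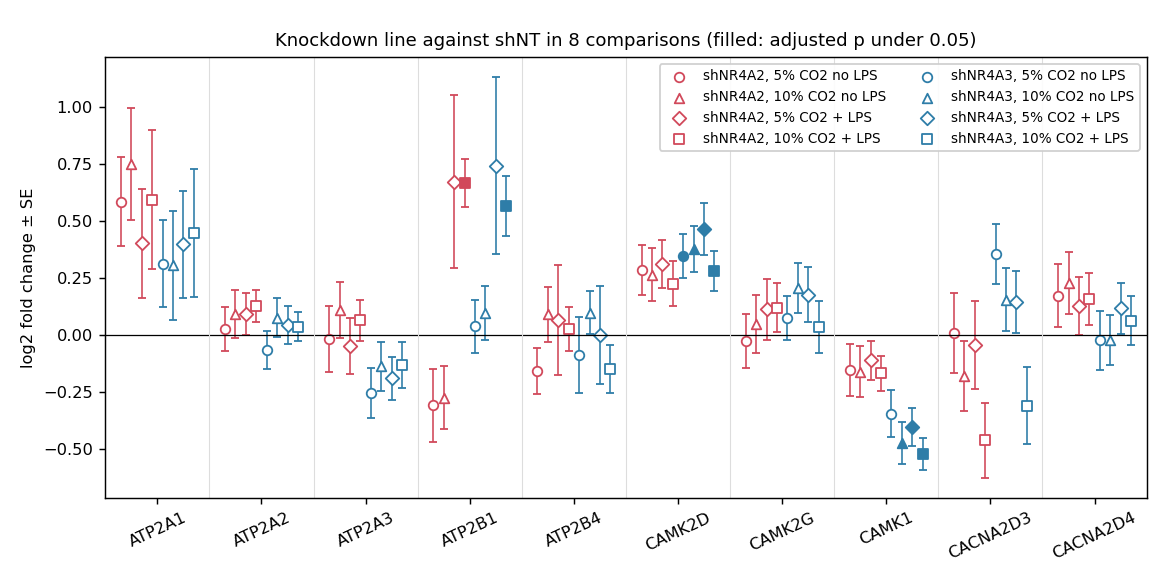
Log2 fold change of each member between a knockdown line and shNT (positive, higher in the knockdown line) with its SE, in the 4 CO2 and LPS states; red is shNR4A2 and blue is shNR4A3, and filled symbols have an adjusted p under 0.05. CAMK2D lies above 0 and CAMK1 below 0 in all 8 comparisons.

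CAMK2D was higher and CAMK1 lower in shNR4A3. CAMK2D was at 53.4, 49.2 and 55.6 scaled CPM in shNR4A3 and 44.5, 40.0 and 40.4 in shNT at 5% CO2 without LPS, with no overlap. Its log2 fold changes were 0.34 ± 0.10 (adjusted p = 0.0447) and 0.38 ± 0.10 (0.0313) without LPS at 5% and 10% CO2, and 0.46 ± 0.11 (0.0375) and 0.28 ± 0.09 (0.0455) with LPS. When 1 library was left out, these calls were lost in 5, 5, 4 and 5 of 6 cases in that order (all but shNR4A3 replicate 2, shNT replicate 1, shNR4A3 replicates 2 and 3, and shNR4A3 replicate 2), with adjusted p up to 0.167. In shNR4A2 the values were 0.22 to 0.31 with no call, of which 0.28 (0.0119) at 5% CO2, 0.31 (0.0019) at 5% CO2 with LPS and 0.22 (0.0143) at 10% CO2 with LPS were called with the block. A single term over the 4 states, added after the values were seen, was 0.27 ± 0.05 in shNR4A2 (adjusted p = 5.06e-05) and 0.37 ± 0.05 in shNR4A3 (6.27e-07), where 41.1% and 35.7% of all genes were called.

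CAMK1 was at 55.8, 52.2 and 54.4 scaled CPM in shNR4A3 and 76.5, 78.7 and 78.1 in shNT with LPS at 10% CO2, the largest of its differences (-0.52 ± 0.07, adjusted p = 0.000329). The other shNR4A3 values were -0.47 (0.00405) at 10% CO2, -0.40 (0.0171, lost without replicate 2 or 3 of shNT or replicate 3 of shNR4A3) at 5% CO2 with LPS and -0.35 at 5% CO2 (0.0579, and 0.0116 with the block), and the libraries did not overlap in any state. In shNR4A2 the values were -0.17 to -0.11 with no call, of which -0.17 at 10% CO2 with LPS was called with the block (0.0335). Over the 4 states the terms were -0.15 ± 0.04 (adjusted p = 0.00541) in shNR4A2 and -0.44 ± 0.04 (4.50e-10) in shNR4A3.

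ATP2B1 was higher in both knockdown lines with LPS at 10% CO2, by 0.67 ± 0.10 in shNR4A2 (adjusted p = 0.000987) and 0.56 ± 0.13 in shNR4A3 (0.0223), and no knockdown library overlapped shNT there. The LPS response over the 200 genes above was also larger in the knockdown lines at 10% CO2, at 4.89 to 5.17 by library against 4.34 to 4.51 in shNT, and its part in the ATP2B1 value was not tested. Over the 4 states ATP2B1 was 0.38 ± 0.14 higher in shNR4A3 (adjusted p = 0.0457), and in shNR4A2 the term of 0.22 ± 0.17 was not called (0.331). The shNR4A3 call was lost without replicate 1 or 3 of shNT (adjusted p up to 0.0781). At 5% CO2 with LPS the values of 0.67 and 0.74 were not called (adjusted p = 0.384 and 0.345), and with the block they were 0.60 (0.00274) and 0.66 (0.0348). In unstimulated shNR4A2 cells at 5% CO2 the ATP2B1 value was -0.31 (adjusted p = 0.310, and 0.0152 with the block). Whether LPS raised ATP2B1 more in a knockdown line than in shNT was tested as an LPS by line term, which was 0.46 to 0.98 in the 4 comparisons. It came closest for shNR4A2 at 10% CO2 (0.93, adjusted p = 0.0687), where the call depended on the setting: it was called with scaling by library size alone (0.91, 0.0449), by DESeq2, without the filter on low counts and without replicate 3 of unstimulated shNT (1.04, 0.0411). Over both CO2 levels it was 0.96 ± 0.26 for shNR4A2 (0.248) and 0.58 ± 0.26 for shNR4A3 (0.429), where 0.254% and 0.598% of all genes were called.

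ATP2A1 lay above shNT in all 8 comparisons by 0.30 to 0.75 with no call. With the block 0.56 at 5% CO2 (0.0290) and 0.59 at 10% CO2 with LPS (0.0423) in shNR4A2 were called, and over the 4 states the terms were 0.57 ± 0.13 (adjusted p = 0.00043) in shNR4A2 and 0.36 ± 0.12 (0.0144) in shNR4A3. For CACNA2D3 in shNR4A2 with LPS at 10% CO2 the value was -0.46 (adjusted p = 0.0658, and 0.0114 with the block). For ATP2A3 in shNR4A3 at 5% CO2 it was -0.26 (0.215, and 0.0323 with the block), and over the 4 states ATP2A3 was called lower there (-0.18 ± 0.05, adjusted p = 0.0104). CACNA2D4 was 0.17 ± 0.07 higher in shNR4A2 over the 4 states (adjusted p = 0.0445). ATP2A2, ATP2B4 and CAMK2G had no call in the 8 comparisons. The knockdown comparisons of ATP2A1, CACNA2D3 and CAMK2G used libraries whose CO2 values had put these genes in the set, so they are not independent of that choice.

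The CO2 response of the relatives was also compared between lines, and the LPS response of the members. None of 28 CO2 by line tests and none of 40 LPS by line tests was called by edgeR, where 0% of all genes were called in the CO2 by line tests and 0%, 0.0451%, 0% and 0.198% in the LPS by line tests. At an unadjusted p under 0.05 there were 0 and 3 such tests, and DESeq2 called 0 and 1. The CO2 by LPS terms within single lines called none of 21, with 1 at an unadjusted p under 0.05 and 1 by DESeq2, beside 0.0226%, 0% and 0% of all genes in shNT, shNR4A2 and shNR4A3.

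Another 98 calcium genes, listed by role with earlier results of these data known, were read beside the members, and 77 of them passed the filter. At 10% CO2, 12 of the 77 were called in shNT with LPS (15.6%, beside 8.19% of all genes), 6 higher and 6 lower, and 0 to 3 in each of the other 5 comparisons. By the number of comparisons called, ITPR1, an inositol trisphosphate receptor that releases calcium from the endoplasmic reticulum, ATP2C1, the Golgi calcium pump, and LETM1, a mitochondrial ion exchanger, came first among those higher, each in 2 of 6, with median log2 fold changes of 0.45, 0.44 and 0.29. TMEM64, a regulator of SERCA2, was called in 1 (median 0.32). P2RX1, an ATP-gated channel, was called lower in 2 of 6 (median -0.48), and CAMK2B, ORAI3, a store-operated channel, and TPCN2, an endolysosomal channel, in 1 each. Over all lines and states, 16 were called higher and 17 lower of 77 (42.9%, beside 37.6% of all genes), led by CACNA1D (0.96), TRPA1 (0.80), CACNA1B (0.77) and RCAN1 (0.52) among the higher and P2RX1 (-0.50), CAMK2B (-0.50), RYR3 (-0.45) and RCAN3 (-0.45) among the lower. Of these, CACNA1D (0 to 27 reads per library), TRPA1 (0 to 61), CACNA1B (0 to 50) and RYR3 (5 to 38) rested on few reads, and their fitted folds depend on the prior count.

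With LPS, 8 to 27 of the 77 were called in each comparison (10.4% to 35.1%, beside 18.2% to 42.1% of all genes). RCAN1, a calcineurin regulator, was called higher in 6 of 6 with a median of 4.02, as were the ATP-gated channel P2RX4 (1.46), TMEM64 (1.22) and the endolysosomal channel MCOLN2 (1.22). ORAI3 was called lower in 6 of 6 (median -1.09), RCAN3 (-0.76) and the calcineurin target NFATC3 (-0.74) in 5, and CAMKK1, which phosphorylates CAMK1, in 3 (-0.47). Between knockdown lines and shNT, 6 to 29 of 77 were called (7.79% to 37.7%, beside 5.41% to 18.9% of all genes). CAMK1D was higher in 8 of 8 (median 0.72), the endolysosomal channel TPCN1 in 7 (0.49), the cation channel TRPM2 in 6 (0.59) and CACNA2D1, an α2δ relative of CACNA2D3, in 5. CACNA2D1 had only 0 to 6 reads per library in shNT, 3 to 18 in shNR4A2 and 32 to 66 in shNR4A3, so no fold is given for it. ORAI2 (-0.66) and the CaM kinase PNCK (-0.64) were lower in 7 of 8, TMEM64 in 4 (-0.30) and NFATC1 in 2 (-0.38).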

How the data were processed

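Total RNA was extracted from THP-1 cells, and 36 libraries made with polyA selection were sequenced. The deposited values were whole-number read counts per Ensembl gene, not normalized. According to the submitters' processing notes, the authors used Trimmomatic 0.36, STAR 2.5.2b, featureCounts of Subread 1.5.2 and GRCh38, and whether counting used strand is not given in the sources used here. Counts were tested in R 4.3.3 with edgeR 4.0.16, using the quasi-likelihood test with Benjamini-Hochberg adjustment over the 17720 genes that passed filterByExpr (minimum count 10, minimum total 15), scaled by trimmed means of M values and fitted to the libraries compared. DESeq2 1.42.0, other scalings and filters, a replicate block and leaving out 1 library at a time were alternatives. Scripts were tested on simulated data. Replicate numbers were taken as pairing samples where the deviations from group means correlated at over 0.1 in every pair, which held in 5 of 6 LPS, 7 of 8 knockdown and 1 of 6 CO2 comparisons. Other calcium genes were named by the number of comparisons called, then by the size of the median change, 4 in each direction, and the 3 genes with the highest r were named as similar. The members and lists were chosen with earlier results of these data known.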

Additional observations from a re-analysis of the deposited data

Results flagged for a closer look

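The LPS rise of ATP2B1 differed between 10% and 5% CO2 when 1 CO2 by LPS term was fitted over the 3 lines. The term was 0.89 on the log2 scale (SE 0.23, edgeR's quasi-likelihood test, adjusted p = 0.0375) and positive in 3 of 3 lines, and it was tested after the values of the single lines, none of which was called, had been seen.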

How the results depend on the processing

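The calls were recounted under other settings. CO2 called 3 of 42 tests on the relatives, 5 with DESeq2, 6 without a filter on low counts and 0 at an adjusted p under 0.01. With the replicate block it called 4, all lower, and the ATP2B1 call in shNT with LPS was lost (0.96, adjusted p = 0.0646), in comparisons where the numbers did not pair the samples. The pooled CO2 term called 5 of 7, 3 at the stricter threshold and 7 with the block. LPS called 22 of 60, 34 with scaling by library size alone and 32 with the block. The knockdown lines gave 9 of 80 calls, 22 with the replicate block and 3 at the stricter threshold. The CO2 by LPS terms gave 0 calls and 1 each with DESeq2 and without the filter. The LPS by line terms gave 0 calls and 1 each with library size alone, DESeq2, no filter and the replicate block. Under the block that call was ATP2B1 in shNR4A2 at 10% CO2 (0.91, adjusted p = 0.000487), where the numbers did not pair the samples. In the single comparisons where the numbers paired the samples, the block values that changed a call stand beside the results and no other call changed there. Over the 4 states the block added ATP2A2 in shNR4A2 (0.08, adjusted p = 0.0374 in place of 0.0831) and CAMK2G in shNR4A3 (0.12, 0.0474 in place of 0.0549). Leaving out 1 library at a time gave 0 to 3 CO2 calls, 5 to 7 pooled, 20 to 23 for LPS, 7 to 11 for the knockdown lines, 0 to 1 for LPS by line and 0 for both CO2 interactions. Of the single values called with either scaling, 2 turned direction with scaling by library size alone: CAMK1 after LPS in shNR4A2 at 10% CO2 (-0.24, adjusted p = 0.0395) and ATP2A2 in shNR4A3 at 10% CO2 (-0.047, 0.574). Values near 0 that were called with neither also changed sign, such as ATP2A2 after LPS at 5% CO2 in shNT (0.12 to -0.057) and shNR4A2 (0.18 to -0.038) and CAMK2D in shNT at 10% CO2 (0.08 to -0.14). The cause of these changes was not tested, except that library size alone moved the median of all genes after LPS by -0.25 to -0.18. The pooled terms and those without 3 libraries were added after the data had been seen. Low counts limit ATP2A1, with 26 to 183 reads per library.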
